A study of Mus musculus with 12 samples.

Results

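The pentose phosphate pathway enzymes were followed across the 12 libraries as 10 named genes of the deposited table: Tkt, Taldo1, Rpia, Rpe, G6pdx, Pgls, Pgd, H6pd, Prps1 and Prps2. All 10 were found by their symbols among the 17955 genes of the table, and all 10 had enough counts to be among the 12903 genes tested. The RNA came from regulatory T cells (Tregs), the Foxp3-expressing T cells that restrain immune responses, which had been sorted as CD4+CD25+YFP+ cells out of spleen and lymph nodes of C57BL/6 mice at 7 weeks of age. All mice carried Foxp3YFP-cre, a Cre recombinase made with a yellow fluorescent protein under the control of the Foxp3 locus. They were either TKT+/+ (WT) or TKTfl/fl (cKO), so that the transketolase gene was deleted where Foxp3 had been expressed and was kept in the other cells of the animal. From the pregnancy of the mothers to adulthood the drinking water held either vehicle or dimethyl α-ketoglutarate (DMαKG), at a dose that the labels do not give. There were 3 libraries in each of the 4 groups (WT vehicle, cKO vehicle, WT DMαKG and cKO DMαKG), and the series' design text gives 3 mice per group.

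The pentose phosphate pathway branches off glycolysis at glucose 6-phosphate. Its oxidative branch makes NADPH, the reducing power for biosynthesis and antioxidant defence, and ends in a pentose phosphate. Its non-oxidative branch interconverts pentose phosphates with glycolytic intermediates in both directions, and transketolase and transaldolase carry out the carbon transfers between the sugars. Pentose phosphate leaves the pathway for nucleotide synthesis when it is made into 5-phosphoribosyl pyrophosphate (PRPP).

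The promoters shown are those of Tkt, the gene targeted in cKO, and of G6pdx, which encodes the entry enzyme of the oxidative branch. G6pdx did not pass the test, and a link between these sequences and the changes was not tested. The sequences are RefSeq windows of build GRCm38.p6, from 250 bases before to 50 after the annotated start of the gene, written 5′ to 3′ on the strand of the gene. Tkt is at chr14:30548881-30549180 (plus strand) and G6pdx at chrX:74428831-74429130 (minus strand). Capitals mark matches on either strand to the GC box GGGCGG and to the antioxidant response element core TGACNNNGC.
Tkt: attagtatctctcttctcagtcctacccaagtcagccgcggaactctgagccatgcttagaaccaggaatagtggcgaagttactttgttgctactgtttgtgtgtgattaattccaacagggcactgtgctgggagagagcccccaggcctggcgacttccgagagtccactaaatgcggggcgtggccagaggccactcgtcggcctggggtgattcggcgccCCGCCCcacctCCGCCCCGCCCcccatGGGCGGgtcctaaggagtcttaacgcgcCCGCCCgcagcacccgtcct
G6pdx: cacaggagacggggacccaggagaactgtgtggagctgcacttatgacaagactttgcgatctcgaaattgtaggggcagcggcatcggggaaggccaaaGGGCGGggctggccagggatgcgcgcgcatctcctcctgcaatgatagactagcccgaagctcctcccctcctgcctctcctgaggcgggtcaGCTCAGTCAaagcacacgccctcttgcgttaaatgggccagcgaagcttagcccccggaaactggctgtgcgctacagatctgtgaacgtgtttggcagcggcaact
The Tkt window held 5 GC boxes, of which a pair share a base, and 0 matches to TGACNNNGC. The G6pdx window held 1 GC box and 1 match to TGACNNNGC, which did not overlap it. The 10 members had 11 such windows. GGGCGG was found in 8 of the 11, against 35.7% of 32851 windows of all genes. TGACNNNGC was found in 2 of the 11, those of G6pdx and Pgd, against 12.4% of all windows. CCAAT was found in 5 of the 11 (37.4% of all windows), and the E-box CACGTG in 0 of the 11 (7.15% of all windows). The windows of all genes were not limited to the genes tested here, and enrichment of a motif was not tested.

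The libraries were of similar depth, with summed estimated counts of 1.57e+07 to 1.89e+07, and the members had 388 to 3637 estimated counts in a library. The Treg markers Foxp3, Il2ra, Ctla4, Ikzf2, Cd4 and Cd3e were all present and summed to 3520 to 6090 CPM (counts relative to the TMM-scaled library size) per library. Several libraries stood apart. Ddx3y, a Y-linked gene, was almost absent from 1 WT vehicle library (replicate 3, 0.0555 CPM) and from 2 of the cKO DMαKG group (replicates 1 and 3, 0.518 and 0.509 CPM), lay at 22.6 CPM in WT DMαKG replicate 2 and reached 109 to 241 CPM elsewhere. On the first principal component, the replicate 4 libraries of both vehicle groups grouped with the third WT DMαKG library. The library cKO DMαKG replicate 3 lay at its other end and was the highest or lowest of all 12 for 6 of the 10 members. Its summed FPKM was 534252 against 434545 to 481043 in the others, so its TPM values are low relative to its CPM values.

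Per transcript length, Taldo1 was the most abundant member in every group. Taldo1 encodes transaldolase, the other carbon-transfer enzyme of the non-oxidative branch, and its mean level in the 4 groups was 199 to 226 TPM (a length-corrected relative abundance, as deposited). In WT vehicle libraries it stood at 226 ± 28.7 TPM (SD, n = 3) and was followed by Prps2 at 84.0 ± 6.61, Tkt at 84.0 ± 9.05, Pgd at 79.9 ± 7.51, Pgls at 71.8 ± 10.9, Prps1 at 70.6 ± 6.12, Rpia at 62.0 ± 6.78, G6pdx at 49.1 ± 4.73, Rpe at 44.7 ± 1.83 and H6pd at 21.1 ± 3.10 TPM. Each gene overlapped the next in this order except Taldo1 with Prps2 and Rpe with H6pd, so the order from Prps2 to Rpe was not resolved step by step. In both cKO groups Tkt was next to last, at 24.3 ± 4.55 TPM with vehicle and 22.2 ± 3.75 TPM with DMαKG. It overlapped H6pd below it with vehicle and did not overlap it with DMαKG.

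Transketolase RNA was the member that fell in the knockout. Tkt (gene 21881, chromosome 14, 30549131 to 30574724, GRCm38) had levels of 133, 102 and 111 CPM in the WT vehicle group (replicates 2 to 4), whereas 26.2, 37.2 and 41.8 CPM were counted in the cKO vehicle group. The WT DMαKG group (replicates 1 to 3) had 110, 137 and 194 CPM, whereas the cKO DMαKG group had 37.8, 34.6 and 31.5 CPM. Every cKO library was below every WT library, and the highest value of all came from WT DMαKG replicate 3. As a share of the WT vehicle mean, the cKO libraries kept 22.9% to 33.5% with vehicle and 21.3% to 29.5% with DMαKG, computed from TPM.

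The fitted fall was -1.72 on the log2 scale with vehicle (SE 0.21, 95% interval -2.18 to -1.25, edgeR adjusted p = 0.0212) and -2.08 with DMαKG (SE 0.22, interval -2.56 to -1.61, edgeR adjusted p = 0.006). Averaged over both treatments it was -1.90 (SE 0.15, edgeR adjusted p = 0.000261), a fold of 0.268, and Tkt then ranked first of all genes by p. Tkt was 1 of 10 members past the threshold of 0.05 in each of these comparisons, where 0.0233%, 0.0698% and 0.977% of all genes passed in either direction and 0.0155%, 0.00775% and 0.248% passed with a lower level in cKO. It was also the single member whose libraries did not overlap between genotypes, which held for 15.3% of all genes with vehicle, 15% with DMαKG and 1.71% over all 12 libraries.

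The fall kept its direction in every setting tried, and the call within a single treatment did not hold in all of them. With vehicle it was lost in a fit of only the groups compared (log2 fold change -1.72, edgeR adjusted p = 0.112), and a replicate block ended it both with vehicle (-1.73, edgeR adjusted p = 0.214) and with DMαKG (-2.05, edgeR adjusted p = 0.212). Without cKO vehicle replicate 2 the change with vehicle was -1.54 (edgeR adjusted p = 0.123). Without WT vehicle replicate 2, 3 or 4 or cKO vehicle replicate 3 it was -1.60, -1.79, -1.74 and -1.77 (edgeR adjusted p = 0.0597, 0.0606, 0.0614 and 0.0693), and with DMαKG it was -2.13 and -2.06 without cKO replicate 1 or 2 (0.055 and 0.0548). Without the 3 libraries almost lacking Ddx3y, which leaves 1 cKO DMαKG library that is assumed to vary like the others, the changes were -1.79 (edgeR adjusted p = 0.13) with vehicle, -2.08 (0.321) with DMαKG and -1.94 (0.0333) averaged.

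**Figure D1:**
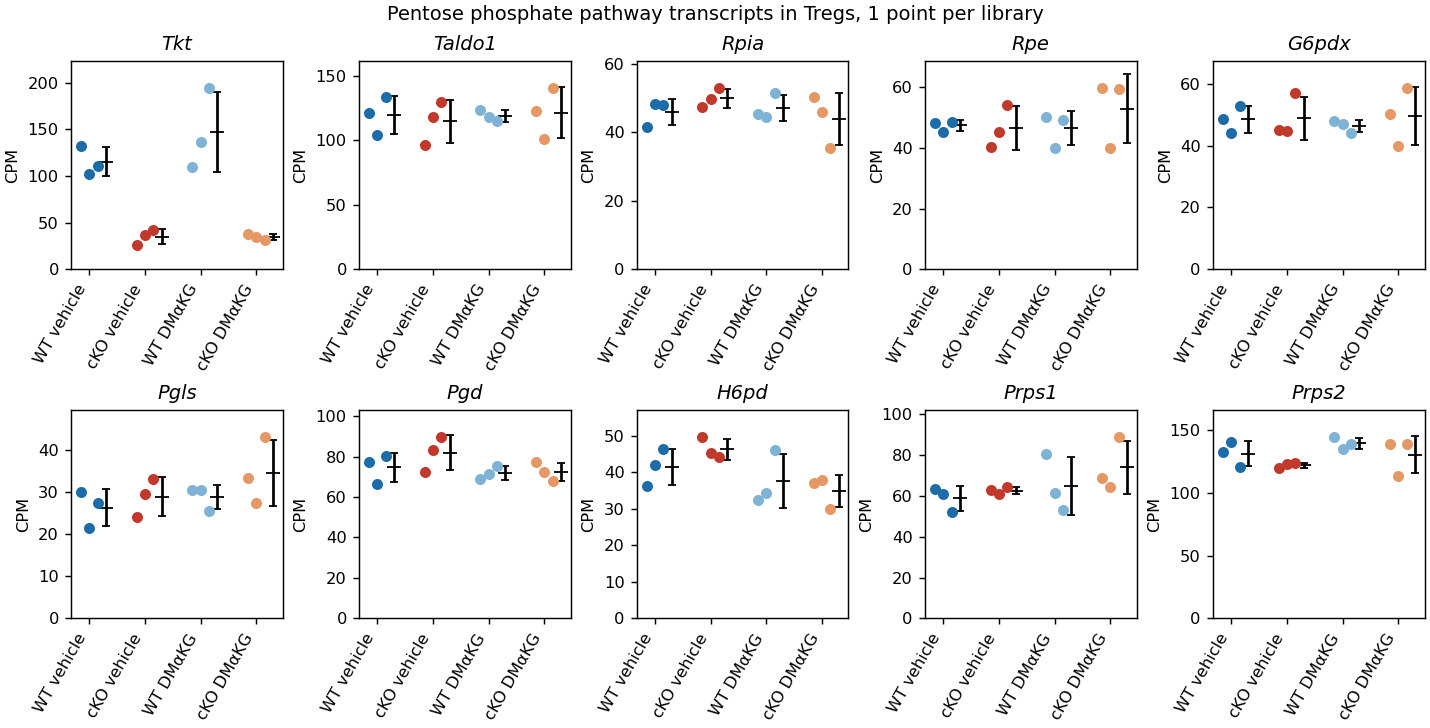
CPM of each of the 10 members in every library, by group in replicate order, with the group mean and SD in black; every vertical axis starts at 0. Tkt lies at 102 to 194 CPM in WT and 26.2 to 41.8 CPM in cKO libraries, while the groups of the other members overlap between genotypes.

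Some Tkt RNA remained in all 6 sorted cKO samples, with means of 35.1 ± 8.02 CPM with vehicle and 34.6 ± 3.11 CPM with DMαKG (SD, n = 3). Counts are per gene, so reads from exons outside the deleted part cannot be told apart from reads of an intact transcript. Fewer cells with the transcript and less transcript per cell also cannot be told apart in these bulk samples. Macrophage and monocyte markers, 10 of 10 measured, summed to 56 to 149 CPM in WT vehicle, 38.7 to 85.8 in cKO vehicle, 43.3 to 154 in WT DMαKG and 69.7 to 171 CPM in cKO DMαKG libraries, and none was at 0 throughout a group. Dendritic cell markers, 8 of 8 measured, summed to 52.3 to 97.2, 35.4 to 56.8, 48 to 58.2 and 41.8 to 53.5 CPM in the same order, and B cell markers, 5 of 5 measured, to 12.6 to 22.2, 11.6 to 21.6, 14.8 to 18.7 and 15.8 to 36.4 CPM. Erythroid markers, 6 of 6 measured, summed to 11 to 24.1, 1.79 to 14.6, 4.37 to 18.9 and 1.73 to 11.8 CPM. In cKO against WT with vehicle, 0 of these markers passed edgeR's test, and the estimates were below 0 for 10 of 10 tested macrophage markers (median log2 fold change -1.03, 1 at an unadjusted p under 0.05), 6 of 7 dendritic cell markers (-1.61, 5), 5 of 5 erythroid markers (-1.03, 0) and 4 of 5 B cell markers (-0.27, 0). Of all genes, 7.4% had an unadjusted p under 0.05 with edgeR in that vehicle comparison. With DMαKG the medians of these markers were 0.10, -0.08, -0.66 and 0.34 in the same order. The part of such cells in the fall of Tkt or in the remaining Tkt RNA was not tested.

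The other enzymes of the non-oxidative branch showed no change past the threshold when Tkt was lost. Taldo1 stood at 121, 104 and 134 CPM in WT vehicle and 96.5, 118 and 130 CPM in cKO vehicle libraries, with a log2 fold change of -0.06 (95% interval -0.38 to 0.26). Over both treatments its interval ran from -0.24 to 0.21, so a change of the size seen for Tkt lay far outside it. Rpia, ribose 5-phosphate isomerase, had 45.9 ± 3.82 CPM in WT vehicle and 49.9 ± 2.75 CPM in cKO vehicle libraries (SD, n = 3; log2 fold change 0.12, interval -0.17 to 0.41). Rpe, ribulose-phosphate epimerase, stood at 47.4 ± 1.82 and 46.6 ± 7.14 CPM (-0.03, interval -0.39 to 0.33). Rpe overlaps Kansl1l on the opposite strand and had non-whole counts in all 12 libraries, so its level is uncertain.

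With DMαKG the genotype changes of these enzymes were 0.03 for Taldo1 (interval -0.28 to 0.35), -0.10 for Rpia (-0.40 to 0.19) and 0.19 for Rpe (-0.17 to 0.55). The Rpia value rested on cKO DMαKG replicate 3, which at 35.4 CPM was the lowest of all libraries. The log2 fold change was 0.04 without it. Rpe split the cKO DMαKG group, at 59.7 and 59.5 CPM in replicates 1 and 3 and 39.9 CPM in replicate 2, which include its highest and its lowest library. Without replicate 2 the change was 0.38 (edgeR adjusted p = 0.294), and without the 3 libraries almost lacking Ddx3y, which leaves replicate 2 as the single cKO DMαKG library, it was -0.22 (0.902). Taldo1 changed by -0.23 (0.885) in that setting.

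The make-up of the non-oxidative branch shifted with Tkt. In WT vehicle libraries Tkt made up 20.2% ± 2.27 of the summed TPM of Tkt, Taldo1, Rpia and Rpe, and in WT DMαKG libraries 24.2% ± 5.43 (SD, n = 3). In cKO libraries its share was 7.18% ± 0.745 with vehicle and 7.01% ± 1.07 with DMαKG. The ratio of Taldo1 to Tkt was 2.36 to 3.13 in WT vehicle and 8.03 to 9.53 in cKO vehicle libraries, and 1.53 to 2.92 and 7.57 to 11.5 in the corresponding DMαKG libraries. The summed TPM of Taldo1, Rpia and Rpe without Tkt was 333 ± 32.1 in WT vehicle and 312 ± 26.6 in cKO vehicle libraries, 313 ± 19.4 in WT DMαKG and 294 ± 23.7 in cKO DMαKG libraries, with overlap between genotypes in both treatments.

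**Figure D2:**
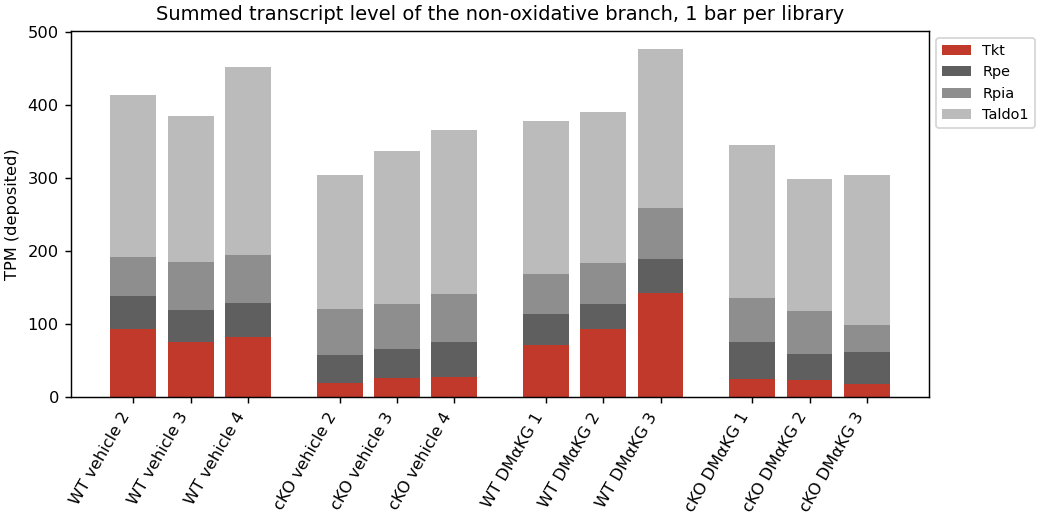
Deposited TPM of Tkt, Rpe, Rpia and Taldo1 stacked for each of the 12 libraries. The Tkt segment takes 18.2% to 29.8% of the bar in WT libraries and 5.87% to 8% in cKO libraries.

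Transcripts of the oxidative branch did not pass in any comparison either. G6pdx, the X-linked glucose 6-phosphate dehydrogenase that commits glucose to the branch, stood at 48.6, 43.9 and 52.8 CPM in WT vehicle and 44.9, 44.7 and 56.8 CPM in cKO vehicle libraries (log2 fold change 0.01, interval -0.31 to 0.34). Its groups overlapped, and with DMαKG the genotype change was 0.09 (-0.23 to 0.42). Without cKO DMαKG replicate 2, its lowest library, that change was 0.25 (edgeR adjusted p = 0.41), without replicate 3 it was -0.04 (0.962), and without the 3 libraries almost lacking Ddx3y it was -0.22 (0.885). G6pdx lies within Ikbkg on the opposite strand and had non-whole counts in 7 libraries, so it too is uncertain.

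With DMαKG the genotype change of Pgls, 6-phosphogluconolactonase, was 0.26 (SE 0.185), beside 0.09 for G6pdx and 0.01 for Pgd (SE 0.149 and 0.111). With vehicle Pgls and Pgd were alike, at 0.14 and 0.13 (SE 0.185 and 0.111), and G6pdx had 0.01. Pgls stood at 30.2, 21.5 and 27.4 CPM in WT vehicle and 24.1, 29.6 and 33.3 CPM in cKO vehicle libraries. In WT DMαKG it had 30.6, 30.5 and 25.6 CPM and in cKO DMαKG libraries 33.5, 27.4 and 43.1 CPM. The genotype change averaged over treatments was 0.20 (SE 0.13, interval -0.09 to 0.48, edgeR adjusted p = 0.575), and the genotypes overlapped. With DMαKG alone it was 0.26, and -0.07 without the 3 libraries almost lacking Ddx3y (edgeR adjusted p = 0.652 and 0.967). Pgd, 6-phosphogluconate dehydrogenase, which makes the second NADPH of the branch, changed by 0.07 on the log2 scale averaged over treatments (interval -0.10 to 0.24) and ranged from 66.3 to 89.5 CPM over 12 libraries, the smallest ratio of highest to lowest among the oxidative genes. The ratio of Pgd to G6pdx TPM was 1.63 ± 0.0505 in WT vehicle, 1.78 ± 0.168 in cKO vehicle, 1.64 ± 0.152 in WT DMαKG and 1.59 ± 0.351 in cKO DMαKG libraries. The summed TPM of G6pdx, Pgls and Pgd was 201 ± 21.2, 205 ± 18.7, 190 ± 5.94 and 193 ± 9.90 in the same order.

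H6pd, the hexose 6-phosphate dehydrogenase of the endoplasmic reticulum, which makes NADPH inside that compartment, was the member with the lowest unadjusted p for DMαKG in cKO and averaged over genotypes. It stood at 49.5, 45.1 and 44.1 CPM in cKO vehicle and 37.0, 37.7 and 29.9 CPM in cKO DMαKG libraries, without overlap. Between these groups 21.1% of all genes did not overlap, and 17.4% had an unadjusted p under 0.05 with edgeR. The log2 fold change in cKO was -0.41 (SE 0.15, interval -0.74 to -0.07, unadjusted p = 0.0205 and edgeR adjusted p = 0.222). In WT it stood at 36.3, 41.8 and 46.3 CPM with vehicle and 32.3, 34.3 and 46.1 CPM with DMαKG, with overlap (-0.14, interval -0.47 to 0.19). The difference between the genotypes' responses was -0.27 (interval -0.74 to 0.20, edgeR adjusted p = 0.949). Averaged over genotypes the change was -0.27 (edgeR adjusted p = 0.258), and limma voom with quality weights gave an adjusted p of 0.0535. Its genotype change was 0.16 with vehicle (interval -0.17 to 0.49) and -0.11 with DMαKG (-0.44 to 0.23).

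Prps1 and Prps2, the X-linked PRPP synthetases, had genotype estimates of opposite sign. Per transcript length, Prps1 lay at 63.6 to 74.7 TPM and Prps2 at 78.8 to 91.4 TPM in WT vehicle libraries, without overlap. Prps1 stood at 63.1, 61.0 and 51.9 CPM in WT vehicle, 62.6, 60.8 and 64.1 in cKO vehicle, 80.4, 61.3 and 52.8 in WT DMαKG and 68.8, 64.3 and 88.5 CPM in cKO DMαKG libraries. Prps2 stood at 133, 140 and 121 CPM in WT vehicle, 120, 123 and 124 in cKO vehicle, 145, 136 and 139 in WT DMαKG and 140, 114 and 139 CPM in cKO DMαKG libraries. Averaged over treatments, the genotype change was 0.14 for Prps1 (interval -0.11 to 0.39) and -0.10 for Prps2 (-0.26 to 0.06), with edgeR adjusted p = 0.662 and 0.625. With Y-linked expression as a covariate Prps2 changed by -0.20 with DMαKG in place of -0.10 (edgeR adjusted p = 0.868 and 0.771), and without cKO DMαKG replicate 2, its lowest library, by 0.02 (0.951). Without the 3 libraries almost lacking Ddx3y, Prps2 changed by -0.29 (edgeR adjusted p = 0.859) and Prps1 by -0.005 (0.999) in the same comparison. The ratio of Prps2 to Prps1 TPM was 1.11 to 1.24 in WT vehicle and 1.03 to 1.09 in cKO vehicle libraries, without overlap. With DMαKG the ratio was 0.956 to 1.41 in WT and 0.842 to 1.07 in cKO libraries, with overlap. The ratio was not tested, and 15.3% of all genes did not overlap between the vehicle groups.

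Prps1 levels are uncertain because Prps1l3, a Prps1-like gene on chromosome 12, had counts as large, and both genes had non-whole counts in all 12 libraries, as did Prps2. Prps1l3 stood at 79.4 ± 3.46 CPM in WT vehicle and 73.1 ± 5.36 CPM in cKO vehicle libraries. The sum of Prps1 and Prps1l3 was 138 ± 7.15, 136 ± 6.35, 145 ± 16.4 and 140 ± 24.6 CPM in WT vehicle, cKO vehicle, WT DMαKG and cKO DMαKG libraries (SD, n = 3).

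Over the 9 members other than Tkt, 0 passed edgeR's test in any of the 7 comparisons, and 0 passed with DESeq2 or with limma voom. For the genotype comparisons with vehicle, with DMαKG and averaged, DESeq2 called 0.775%, 1.11% and 3.08% of all genes and limma voom 1.9%, 1.84% and 8.04%. At an unadjusted p under 0.05 there were 0 of these 9 in the genotype comparisons, where 7.4% of all genes with vehicle, 10.5% with DMαKG and 12.9% averaged were below that level. Their genotype changes ran from -0.10 to 0.16 with vehicle and from -0.11 to 0.26 with DMαKG on the log2 scale, with medians of 0.09 and 0.03 beside 0.01 and 0.00 for all genes. The intervals of all 9 lay between -0.39 and 0.54 with vehicle and between -0.44 and 0.67 with DMαKG.

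DMαKG changed no member past the threshold in either genotype. In WT 0 of 10 members were called, with 0% of all genes called and 0 members against 2.73% of genes at an unadjusted p under 0.05, and 0 members against 8.45% of genes did not overlap. In cKO 0 of 10 were called, again with 0% of all genes, and 1 member, H6pd, against 17.4% of genes was below an unadjusted p of 0.05. DESeq2 and limma voom also called 0 members in both, where they called 0.0155% and 0.062% of all genes in WT and 2.98% and 3.49% in cKO. H6pd and Prps1 did not overlap between cKO vehicle and cKO DMαKG libraries, as did not 21.1% of all genes. The change of Tkt with DMαKG was 0.35 in WT (interval -0.10 to 0.80, edgeR adjusted p = 0.999) and -0.02 in cKO (-0.48 to 0.44, adjusted p = 0.97). The WT value rested on replicate 3 of the DMαKG group at 194 CPM, since it was 0.10 without it. The interaction for Tkt was -0.37 (interval -1.01 to 0.27, edgeR adjusted p = 0.949). For the interaction 0 members and 0% of all genes passed edgeR's test, with 0 members against 3.7% of genes at an unadjusted p under 0.05, and DESeq2 and limma voom each called 0 members and 0.00775% of all genes. Averaged over genotypes 0 members and 0.00775% of all genes passed for DMαKG, 1 member (H6pd) against 16% of genes was at an unadjusted p under 0.05, and 0 members against 0.488% of genes did not overlap. The genotype comparisons share WT and cKO libraries with the DMαKG comparisons, so their values are not independent.

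**Figure D3:**
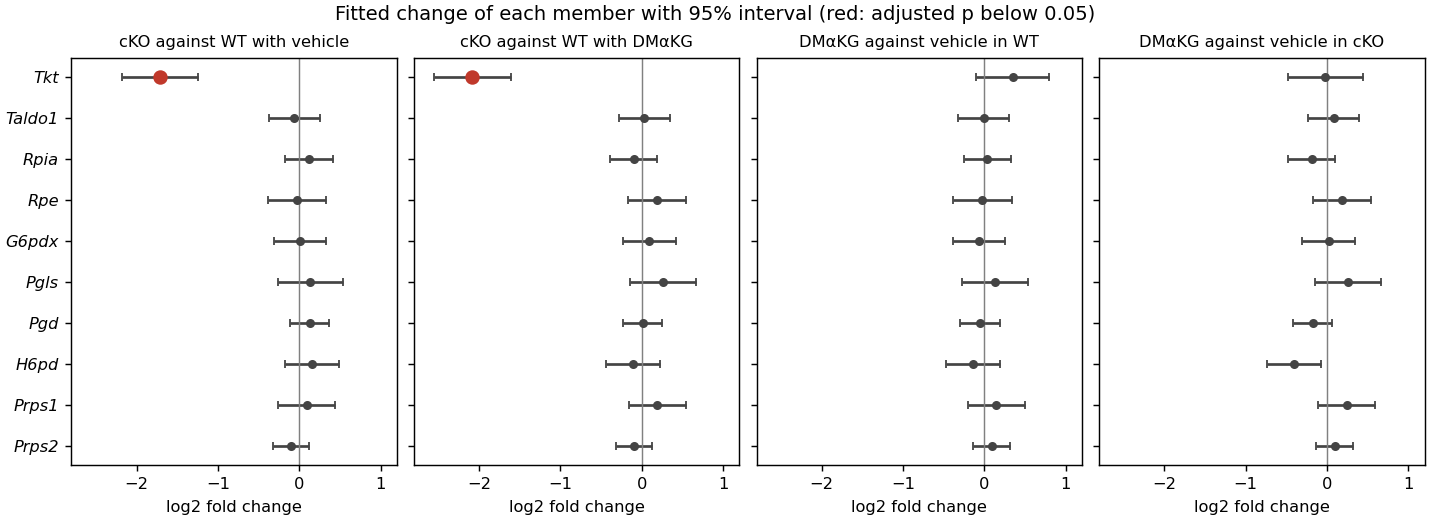
Fitted log2 fold change of each member with its 95% interval in the 4 pairwise comparisons; red marks an edgeR adjusted p below 0.05. Tkt at -1.72 and -2.08 is marked in both genotype comparisons, and the intervals of all other members but that of H6pd for DMαKG in cKO include 0.

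The paralogs of Tkt and G6pdx were at low levels in both genotypes. Tktl1, transketolase-like 1, had 28 to 52 counts in WT vehicle, 21 to 37 in cKO vehicle, 30 to 44 in WT DMαKG and 18 to 29 counts in cKO DMαKG libraries. Its mean was 2.09 ± 0.726 CPM in WT vehicle and 1.58 ± 0.464 CPM in cKO vehicle libraries, with overlap. G6pd2, a copy of G6pdx, was at 0 in 10 libraries and at 1.09 and 2.19 estimated counts in the other two. Tktl2 was not analysed here.

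Genes of related metabolism gave no call with edgeR. Of 23 further pathway genes 19 were tested, and 0 passed edgeR's test in any comparison. Averaged over treatments 10 had positive and 9 negative log2 fold changes in cKO (48.9% of all genes were positive), with a median of 0.07 beside 0.00 for all genes, and 1 had an unadjusted p under 0.05. That gene was Aldoc, aldolase C, at 3.32 ± 0.880 CPM in WT vehicle, 4.41 ± 0.554 in cKO vehicle, 3.87 ± 0.505 in WT DMαKG and 6.49 ± 0.927 CPM in cKO DMαKG libraries. Its log2 fold change was 0.58 (SE 0.16, edgeR adjusted p = 0.129). Limma voom called it as the single gene of this list, and DESeq2 called 0. Of all genes, limma voom called 8.04% and DESeq2 3.08% there, and 12.9% had an unadjusted p under 0.05 with edgeR. Prps1l3 and Pgm1, a phosphoglucomutase, had changes of -0.19 and 0.13 (edgeR adjusted p = 0.44 and 0.505).

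Thiamine pyrophosphate is the cofactor of transketolase, and of 14 genes of thiamine transport, activation and use 11 were tested. None passed edgeR's test in any comparison, and averaged over treatments 7 had positive and 4 negative changes in cKO with a median of 0.06, 1 being at an unadjusted p under 0.05. For that comparison limma voom called 1 gene of the list and DESeq2 called 0, beside 8.04% and 3.08% of all genes. An unadjusted p under 0.05 with edgeR was found there for 12.9% of all genes. Bckdhb, a subunit of the branched-chain keto acid dehydrogenase, had a change of 0.25 (edgeR adjusted p = 0.436).

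Among 13 genes of other NADPH sources 11 were tested, 0 passed edgeR's test in any comparison and 5 had an unadjusted p under 0.05 for genotype averaged over treatments, as did 12.9% of all genes. Idh2, the mitochondrial NADP-dependent isocitrate dehydrogenase, stood at 24.6 ± 3.25 CPM in WT vehicle, 31.7 ± 2.22 in cKO vehicle, 27.7 ± 2.38 in WT DMαKG and 33.0 ± 3.89 CPM in cKO DMαKG libraries. Its averaged change was 0.31 (SE 0.09, edgeR adjusted p = 0.158). Mthfd2l, a mitochondrial folate enzyme, had 0.36 and Idh1, the cytosolic isocitrate dehydrogenase, -0.35 (edgeR adjusted p = 0.303 and 0.324). Limma voom, which called 8.04% of all genes there, called 2 genes of this list, Idh2 and Me2, and DESeq2 called 0. Of 12 genes of PRPP use or nucleotide metabolism all 12 were tested, and 0 passed edgeR's test in any comparison. For the averaged genotype change 1 had an unadjusted p under 0.05, while DESeq2 and limma voom called 0. That gene, Nampt, which uses PRPP to make the NAD precursor, had a log2 fold change of 0.28 (edgeR adjusted p = 0.276), and Uprt and Umps had -0.19 and 0.11 (0.429 and 0.736). For DMαKG, the other tools called genes of these lists that edgeR did not. In cKO, DESeq2 called Idnk and Bckdhb and limma voom called Idnk and Rrm1. These tools called 2.98% and 3.49% of all genes there. Averaged over genotypes, DESeq2 called 2.67% and limma voom 12% of all genes. The list genes that limma voom called there included Aldoc, Tigar, Idnk, Hprt, Rrm1 and Nampt. Proliferation markers summed to 221 to 826 CPM in cKO vehicle and 552 to 969 CPM in cKO DMαKG libraries. In WT libraries they summed to 480 to 726 CPM with vehicle and 386 to 778 CPM with DMαKG. Their part in these calls was not tested.

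Of 12 tested genes within 500 kb of Tkt, 1 passed with genotype averaged over treatments, as did 0.977% of all genes. Cacna1d, a voltage-gated calcium channel subunit gene whose nearest end lies 58 kb before Tkt, had 8.57 CPM in WT and 3.81 CPM in cKO libraries, without overlap (log2 fold change -1.16, SE 0.24, edgeR adjusted p = 0.0473). It was -1.25 with vehicle and -1.07 with DMαKG, with edgeR adjusted p = 0.312 and 0.311. The averaged call held in 8 of 23 other settings, which were applied to this gene after its values had been seen, with log2 fold changes of -1.32 to -0.82 and adjusted p of 0.000516 to 0.18; Cacna1d overlaps Dcp1a on the opposite strand. Stimate and Nek4, also within the window, had estimates of the other sign, 0.31 and 0.28 (unadjusted p = 0.00337 and 0.00585, edgeR adjusted p = 0.127 and 0.162), without overlap between genotypes. The genes nearest to Tkt on either side, Dcp1a at 22.1 kb before and Prkcd at 20.6 kb after it, had changes of -0.11 and -0.07 (edgeR adjusted p = 0.621 and 0.848).

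**Figure D4:**
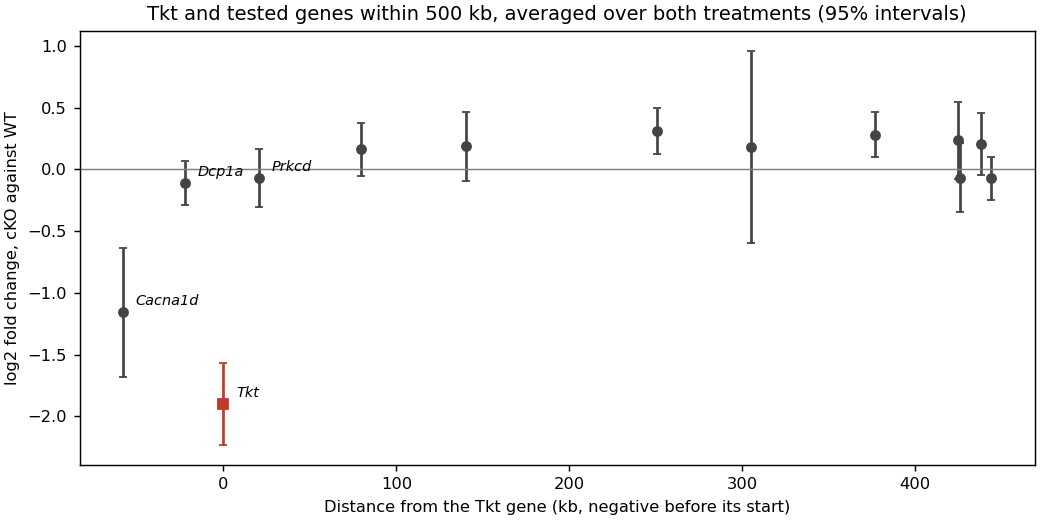
Log2 fold change of cKO against WT averaged over treatments, with 95% intervals, against distance from the Tkt gene in kb, for Tkt (red square) and the 12 tested genes within 500 kb. Tkt at -1.90 and Cacna1d at -1.16 lie below 0, and Dcp1a and Prkcd, the nearest genes, lie near it.

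The genes whose log2 CPM followed Tkt most closely over the 12 libraries were F13a1, Cxxc5, Nrn1, Angptl2 and Ddx46, with Pearson's r of 0.94, 0.91, 0.88, 0.88 and 0.88, given as a description. These libraries share the genotype difference, and after genotype means were removed r was 0.50, 0.23, 0.04, 0.41 and 0.11. F13a1, the coagulation factor XIII A chain gene, had 4.34 CPM in WT and 1.01 CPM in cKO libraries (averaged log2 fold change -2.11, edgeR adjusted p = 0.00749). Angptl2, an angiopoietin-like gene, had 36.9 and 17.8 CPM (-1.05, adjusted p = 0.0248). Nrn1, the neuritin gene, had 37.4 and 16.4 CPM, and Cxxc5 and Ddx46 did not pass (edgeR adjusted p = 0.0512 and 0.142). Among the other members r with Tkt ran from -0.42 for Prps1 to 0.47 for Prps2. After genotype means were removed it ran from -0.325 for Prps1 to 0.525 for Pgd. For Pgd it had been -0.145 before, and for Prps2 it was 0.121 after.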

How the data were processed

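RNA-seq libraries of sorted mouse Tregs were grouped by genotype and treatment from the sample labels. Build mm10 and the tools DESeq2 1.16.1, featureCounts 1.5.0-p3 and HISAT2 2.0.5 are listed, per the submitters' processing notes, without their roles. Strand use in counting is not given in these sources. The authors deposited estimated counts of reads per gene, not normalized, of which 36% of values were not whole, together with FPKM values and TPM values per library, per the file headers. The estimated counts were rounded, since the test had been planned for whole counts. Low genes were removed with edgeR's filterByExpr, and the rest were scaled by TMM and fitted with 1 mean per group over 12 libraries (edgeR 4.0.16 quasi-likelihood, R 4.3.3, 8 residual degrees of freedom, common biological coefficient of variation 19.7%). P-values were adjusted by Benjamini-Hochberg over 12903 genes within a comparison, at a threshold of 0.05. Intervals are 95% intervals of the fitted log2 fold change. TPM served for levels between genes, CPM for levels between libraries, and likeness to Tkt used log2(CPM + 0.5). The fits were tested on simulated data. Alternatives used DESeq2 1.42.0 and limma 3.58.1. The labels do not tie each library to its own mouse, so p-values measure the spread between these libraries, which may be technical.

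The members, lists, naming rule and settings were chosen with earlier results of these data known. The named genes were the members, in 4 lists those past the threshold or otherwise up to 3 with the smallest p for the averaged genotype change, the 5 genes most like Tkt, and genes within 500 kb of it; some of these are not reported here. Coordinates and sequences are from RefSeq, build GRCm38.p6, the same build as mm10, and overlaps and strands from GENCODE M21.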

Additional observations from a re-analysis of the deposited data

How the results depend on the processing

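Tkt kept its direction in all settings for the 3 genotype comparisons. In cKO against WT with vehicle the call and the single member called (0 in place of 1) were lost in a fit of only the groups compared (log2 fold change -1.72, edgeR adjusted p = 0.112), with the replicate block (-1.73, adjusted p = 0.214) and without the 3 libraries almost lacking Ddx3y (-1.79). With DMαKG they were lost with the replicate block (-2.05, adjusted p = 0.212) and without those 3 libraries (-2.08). Leaving out each library in turn gave -1.86 to -1.54 with vehicle, -2.24 to -1.83 with DMαKG, where the members called were 0 to 1 in both, and -1.98 to -1.77 averaged, where the call was kept in all 12 and with the block. For DMαKG in WT the Tkt change was 0.069 with limma voom, 0.075 without the 3 libraries together on the first component and 0.10 to 0.51 over left-out libraries, and the interaction was -0.005, 0.063 and -0.54 to -0.12. The other 9 members passed in 0 of 1485 values over 24 settings, and 51 of these moved by more than 1 SE. Deviations of same-numbered libraries from their group means correlated at -0.31 to 0.53. With 3 libraries a group, these values cannot decide whether the numbers pair the libraries. The number of genes called in all moved with the tool. With vehicle, DMαKG and averaged it was 3, 9 and 126 with edgeR, 8, 24 and 130 with its robust spread, 100, 143 and 398 with DESeq2, 245, 237 and 1038 with limma voom, and 9, 26 and 128 with all genes kept. For DMαKG in WT, in cKO and averaged it was 0, 0 and 1 with edgeR, 2, 385 and 344 with DESeq2 and 8, 450 and 1546 with limma voom, and without WT DMαKG replicate 3 edgeR called 112 in cKO and 608 averaged. The robust spread and the removal of libraries by Ddx3y were chosen after seeing the data. FPKM in place of TPM left Tkt in cKO vehicle libraries at 30% of WT, against 28.9%. The median SE of a log2 fold change was 0.18 between groups, which limits what 3 libraries a group can show.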
